A study of Rattus norvegicus with 28 samples.

Results

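The comparison of the histone variant H3.3Q5A with wild-type H3.3 (H3.3WT) in the medial prefrontal cortex (mPFC) rests on 14 of the 28 RNA-seq libraries of the series. They are all libraries whose titles give this region, 7 with H3.3Q5A and 7 with H3.3WT, and the description runs over all 15635 genes of the deposited count table. Every animal was a male Sprague-Dawley rat, a young adult of 200 to 250 g, and all groups had a 10-day history of extended-access cocaine self-administration. The 7 H3.3WT libraries came from mPFC injected on both sides with lenti-pCDH-H3.3WT, and the 7 H3.3Q5A libraries from mPFC injected with lenti-pCDH-H3.3Q5A. Viral expression and abstinence then lasted 30 days and ended with a test of cocaine-cue seeking. Both groups therefore carry an added H3.3, and no library comes from an uninfected, untreated or drug-naive rat. The titles also carry a mark, P1 or P2, of unstated meaning: H3.3WT has 4 P1 and 3 P2 libraries, and H3.3Q5A has 3 P1 and 4 P2. The cells that the vector infects, and whether a library pools animals, are not given in the sources used here.

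Histone H3.3 is the form of histone H3 that cells insert into chromatin outside DNA replication, so it builds up in neurons, which no longer divide. The glutamine near the start of its tail can be joined to dopamine or serotonin by the enzyme transglutaminase 2, next to the lysine whose trimethylation marks active promoters. In H3.3Q5A this glutamine is an alanine and cannot take up the monoamine. The mPFC receives dopamine fibres from the midbrain and sends glutamate fibres to the nucleus accumbens, a route studied for its part in cue-driven drug seeking. The comparison asks whether adding the histone that cannot be modified, in place of added wild-type H3.3, changes the mPFC transcriptome after prolonged abstinence.

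The files give genes by Ensembl ID and do not pair them with names. Of the 15635 IDs, 0 matched the reference gene table (assembly GRCr8), so the H3.3 transcripts, cell type markers and gene lists could not be looked up and the labelled tissue was not checked against its markers. For the same reason the promoter and microRNA sequences at hand could not be joined to any gene. Genes are therefore described in groups set by their level and by how they vary over the libraries, with at most 2 IDs in each direction per comparison.

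The libraries held 20475343 to 46977997 counts, that is 20.5 to 46.98 M. The H3.3WT libraries averaged 29.1 ± 7.36 M (SD, n = 7) and the H3.3Q5A libraries 36.6 ± 6.72 M, a difference of 7.47 M. A two-sided exact permutation test over all 3432 divisions of the libraries gave p = 0.0694 (adjusted p = 0.471 over 8 library measures, smallest p possible 0.000583). Within P1 the difference was 11.8 M, and within P2 4.001 M. There were 2 libraries that stood apart. H3.3WT replicate 13 had the lowest median correlation with the other libraries, 0.974, and H3.3Q5A replicate 34 the next lowest, 0.978, while the others lay between 0.980 and 0.989 (Pearson correlation of log2 CPM, a gene's counts per mega-count of its library, scaled with TMM factors, which level the bulk of genes between libraries). In H3.3WT replicate 13, 69 genes were at least 2-fold above each of the other 13 libraries. In H3.3Q5A replicate 34, 93 genes were, against 0 to 10 genes in every remaining library.

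No difference between the viruses along the main axes of variation passed the test. The first 4 principal components of log2 CPM held 26.5%, 18.5%, 14.3% and 6.95% of the variance. H3.3WT replicate 13 scored 51.02 on the first component and H3.3Q5A replicate 2 scored 31.6. The remaining 12 scored between −17.5 and 16.8, H3.3WT from −16.2 to 2.41 and H3.3Q5A over the whole of that range. On the second component H3.3WT libraries scored −7.47 ± 14.1 (SD, n = 7) and H3.3Q5A libraries 7.47 ± 18.7, a difference of 14.9 (p = 0.118 by the exact permutation test, adjusted p = 0.471). On the third the scores were −5.50 ± 10.3 and 5.50 ± 18.6 (p = 0.195 by the exact permutation test, adjusted p = 0.519). H3.3Q5A replicate 34 alone scored 42.5 there. Pairs of libraries correlated at a median of 0.986 within H3.3WT (21 pairs), 0.984 within H3.3Q5A (21 pairs) and 0.985 between the groups (49 pairs).

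**Figure D1:**
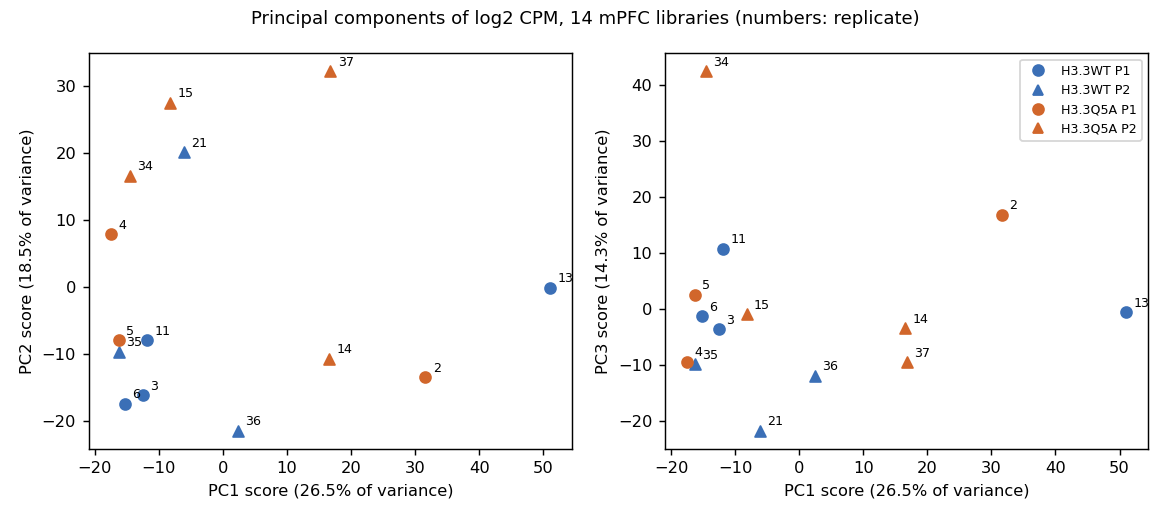
Scores of the 14 mPFC libraries on the first principal component against the second (left) and the third (right), coloured by virus, with circles for P1, triangles for P2 and the replicate number beside each point. H3.3WT replicate 13 lies far out at 51.02 on the first component and H3.3Q5A replicate 34 at 42.5 on the third, and the remaining libraries of both viruses overlap.

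No single gene passed the test for the virus. Of 15485 genes tested with edgeR's quasi-likelihood test and the P mark as a term, 0 (0%) had a Benjamini-Hochberg adjusted p under 0.05, and the smallest adjusted p was 0.626. At an unadjusted p under 0.05 there were 1221 genes (7.89%), of which 661 (4.27%) were higher and 560 (3.62%) lower with H3.3Q5A. At an unadjusted p under 0.01 there were 191 genes and under 0.001 there were 13. DESeq2, a second count model, called 8 genes (0.0512% of 15635), of which 3 were higher. limma voom with quality weights called 0 (0%), with 1593 genes at an unadjusted p under 0.05. The median fitted log2 fold change was 0.0023 and its median size 0.091. Region-level tissue was sequenced, so fewer cells of a type and less RNA per cell cannot be told apart. Without the 2 libraries that stood apart, edgeR also called 0 genes and 1805 had an unadjusted p under 0.05. The latter count was 2020 without H3.3WT replicate 13 alone and 705 without H3.3WT replicate 36. It was 501 with the log2 total count as an added term, and edgeR again called 0 genes there.

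**Figure D2:**
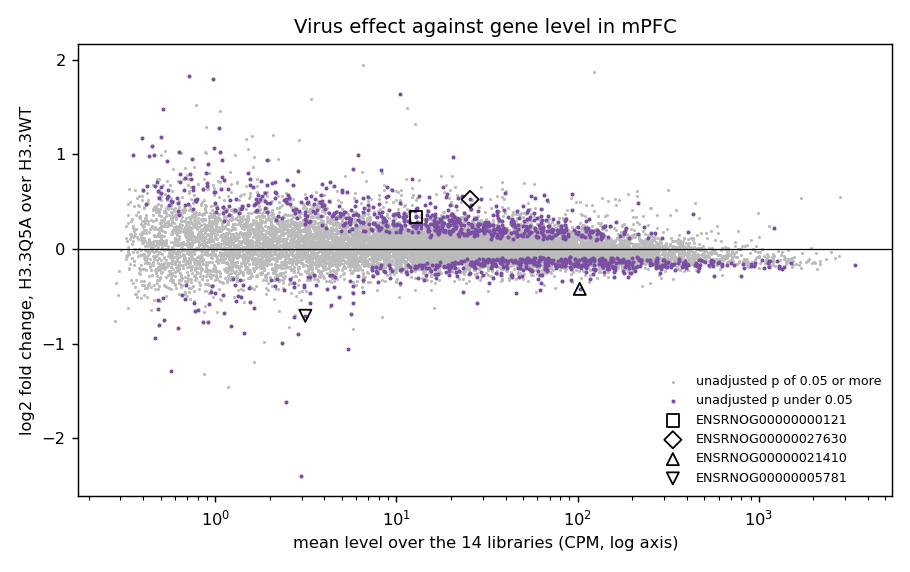
Fitted log2 fold change of H3.3Q5A over H3.3WT (vertical axis) against the mean level over the 14 libraries in CPM (horizontal log axis), 1 point per gene. Purple marks an unadjusted p under 0.05. Outlined symbols mark the 2 genes of smallest p each way at a mean of 1 CPM or more. The scatter narrows as the level increases, and 0 of 15485 genes passed at an adjusted p under 0.05.

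The genes with the smallest p-values each way at a mean of 1 CPM or more were 2 that were higher and 2 that were lower with H3.3Q5A. ENSRNOG00000000121 ran from 10.3 to 12.99 CPM with H3.3WT (median 11.3) and from 13.3 to 15.9 CPM with H3.3Q5A (median 14.3). Every H3.3Q5A library was thus above every H3.3WT library, and the highest H3.3WT library was replicate 13. Its log2 fold change was 0.34 (SE 0.069, 95% interval 0.19 to 0.49; edgeR adjusted p = 0.626). Fitted within P1 it was 0.29, and within P2 0.39.

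ENSRNOG00000027630 ran from 15.6 to 25.8 CPM with H3.3WT (median 20.4) and from 25.5 to 34.3 CPM with H3.3Q5A (median 30.2). Of the 7 H3.3Q5A libraries, 6 were above the highest H3.3WT library, so the groups met only at their edges. The log2 fold change was 0.52 (SE 0.11, 95% interval 0.29 to 0.75; edgeR adjusted p = 0.626), with 0.38 among P1 and 0.67 among P2 libraries. With the replicate that moved it most left out, H3.3WT replicate 36, it was 0.44.

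ENSRNOG00000021410 ran from 92.8 to 136 CPM with H3.3WT (median 126) and from 68.5 to 103 CPM with H3.3Q5A (median 81.8). The lowest H3.3WT libraries, replicates 13 and 21, lay within the range of the H3.3Q5A libraries, and 4 of the 7 H3.3Q5A libraries lay below every H3.3WT library. These 4 were the P2 libraries, at 68.5, 80.5, 81.4 and 81.8 CPM, while the 3 P1 libraries were at 93.5, 100.2 and 103 CPM. The log2 fold change was −0.42 (SE 0.092, edgeR adjusted p = 0.626), with −0.29 among P1 and −0.55 among P2 libraries.

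ENSRNOG00000005781 ran from 3.26 to 4.75 CPM with H3.3WT (median 3.93) and from 1.53 to 3.03 CPM with H3.3Q5A (median 2.46). All 7 H3.3Q5A libraries were below all 7 H3.3WT libraries, on raw counts of 53 to 146 per library. The log2 fold change was −0.71 (SE 0.15, 95% interval −1.04 to −0.38; edgeR adjusted p = 0.626), with −0.63 among P1 and −0.78 among P2 libraries. These 4 genes were picked by p-value in these libraries, so neither the gap between their groups nor their sign within P1 and P2 adds support. DESeq2 called all 4, at adjusted p-values of 0.0233, 0.0303, 0.0393 and 0.0393 in the order given.

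**Figure D3:**
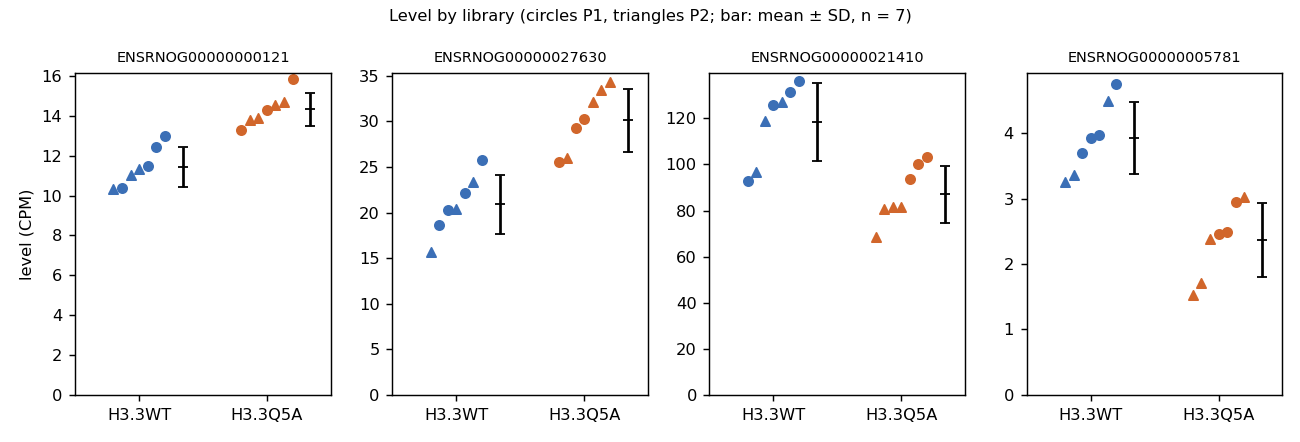
Level in CPM in each library of the 2 genes of smallest p each way at a mean of 1 CPM or more, ordered by level within a group. Blue marks H3.3WT, orange H3.3Q5A, circles P1, triangles P2 and a bar the mean ± SD (n = 7). The groups do not overlap for ENSRNOG00000000121 and ENSRNOG00000005781, and meet or overlap for ENSRNOG00000027630 and ENSRNOG00000021410.

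In few genes were the groups fully apart. Of the genes tested, 4 (0.0258%) had all 7 H3.3Q5A libraries above all 7 H3.3WT libraries and 8 (0.0517%) had them all below, 12 (0.0775%) together. With no difference between the groups, full separation either way has a probability of 0.000583 for a gene. Such genes are thus found among 15485 tested without any effect, at a share not far below the 0.0775% seen. The count of 12 therefore adds no support. The 4 higher genes had a median level of 0.442 CPM and a median log2 fold change of 1.034, and 1 of them reached 10 CPM. The 8 lower genes had a median level of 52.6 CPM and a median log2 fold change of −0.19, and 5 of them reached 10 CPM. The 8 genes called by DESeq2 had means of 3.14 to 1066 CPM and edgeR log2 fold changes of 0.18 to 0.71 in size. The groups did not overlap in 4 of them. DESeq2's calls depended on single libraries: on leaving out each in turn it called 0 to 39 genes, with 0 of the 8 called again in 5 of the 14 cases. All 8 were called again without H3.3WT replicate 13 and without H3.3Q5A replicate 14, where DESeq2 called 39 and 20 genes.

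For most genes at 10 CPM or more the interval of the change was narrow. Over all genes tested the 95% interval of the fold change lay within 1.25-fold either way for 50.7%, within 1.5-fold for 79.3% and within 2-fold for 94.4%. Of the 2466 genes at 100 CPM or more, 75.8% had an interval within 1.25-fold and 96.6% within 1.5-fold. Of the 7927 genes at 10 to 100 CPM, these shares were 68.0% and 92.5%. For the 3929 genes at 1 to 10 CPM they were 14.8% and 60.0%, and for the 1163 genes under 1 CPM 0.344% and 18.5%. A 2-fold difference was thus within the interval of 862 genes, 306 of them under 1 CPM and 22 at 100 CPM or more. The median SE of the log2 fold change was 0.26 under 1 CPM, 0.17 at 1 to 10 CPM, 0.079 at 10 to 100 CPM and 0.071 at 100 CPM or more. These intervals are for each gene alone and are not adjusted over genes.

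**Figure D4:**
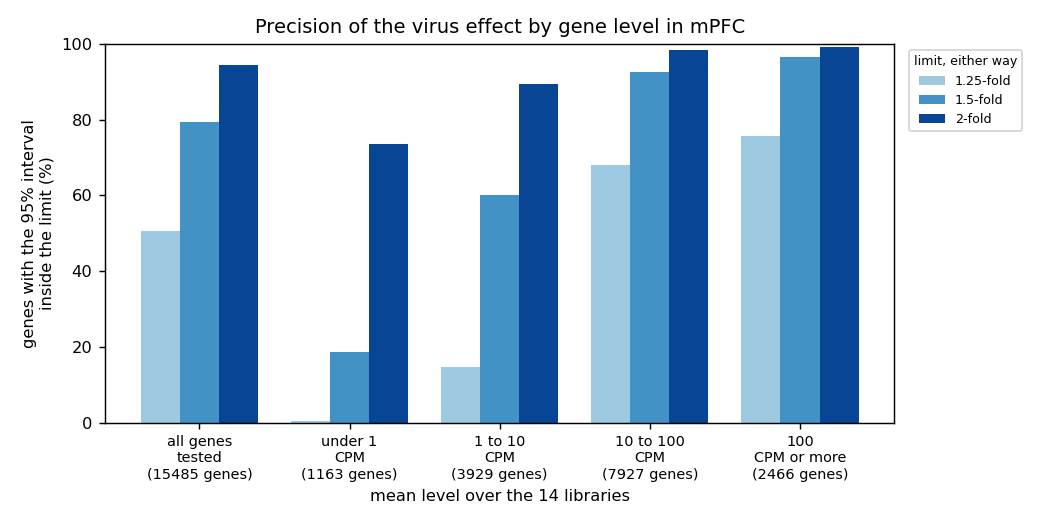
Share of genes in percent (vertical axis) whose 95% interval of the H3.3Q5A over H3.3WT fold change lies within 1.25-fold, 1.5-fold or 2-fold either way, for all genes tested and for 4 groups set by the mean level over the 14 libraries. The share within 1.5-fold goes from 18.5% under 1 CPM to 96.6% at 100 CPM or more.

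In the main fit the direction of the small fitted differences varied with the level of the gene. The size of this pattern depended on the libraries and terms in the fit, and in 1 fit its direction did too. Of the genes at 100 CPM or more, 28.7% were higher with H3.3Q5A, with a median log2 fold change of −0.055. An unadjusted p under 0.05 was found for 50 of them that were higher and 214 that were lower, 10.7% together, against 4.27% higher, 3.62% lower and 7.89% together over all genes tested. That share was 6.36% under 1 CPM, where the median SE was 0.26 against 0.071 at 100 CPM or more. Genes of a library are also not independent, so the 10.7% adds no support. Of the 84 genes at 1000 CPM or more, 6 were higher, and the median was −0.12 (range −0.21 to 0.55). At 10 to 100 CPM 51.4% of genes were higher (median 0.0041), at 1 to 10 CPM 60.7% (median 0.048) and under 1 CPM 59.2% (median 0.073). Over all genes tested 50.7% were higher. The medians at 100 CPM or more were −0.014 among P1 libraries and −0.085 among P2 libraries, those at 1 to 10 CPM were 0.015 and 0.090, and those under 1 CPM were 0.0046 and 0.13. On leaving out each library the median at 1 to 10 CPM ran from 0.015 without H3.3Q5A replicate 2 (52.7% higher) to 0.098 without H3.3WT replicate 13 (66.3% higher). Under 1 CPM it ran from 0.045 without H3.3Q5A replicate 34 to 0.12 without H3.3WT replicate 13. With library totals in place of TMM factors 40.2% of the genes at 100 CPM or more were higher and the median was −0.022. That scaling gave 63.1% higher at 10 to 100 CPM (median 0.037), 67.0% at 1 to 10 CPM (median 0.079) and 63.8% under 1 CPM (median 0.10), and moved the median of all genes to 0.035. The H3.3Q5A libraries were also deeper on average, by 7.47 M counts. With the log2 total count as a term, 40.8% of the genes at 100 CPM or more were higher (median −0.020), 50.6% of those at 1 to 10 CPM (median 0.0033) and 53.1% of those under 1 CPM (median 0.023). With the first 3 principal components as terms, a choice made after seeing the data, 55.7% were higher at 100 CPM or more (median 0.0096). In that fit 52.8% were higher at 1 to 10 CPM (median 0.012) and 48.0% under 1 CPM (median −0.012).

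The share of each library's counts shows the levels behind these values and needs no scaling factor. Genes at 1000 CPM or more took 11.96% to 13.5% of the counts with H3.3WT (median 12.8%) and 11.8% to 12.8% with H3.3Q5A (median 12.2%). The lowest library was H3.3Q5A replicate 34 and the highest H3.3WT replicate 3. The ranges overlapped, although 6 of the 7 H3.3Q5A libraries were below the H3.3WT mean. The H3.3WT mean was 12.8 ± 0.559% (SD, n = 7) and the H3.3Q5A mean 12.2 ± 0.450%, that is 12.8% and 12.5% among P1 libraries and 12.8% and 12.02% among P2 libraries. Genes at 1 to 10 CPM took 1.64 ± 0.179% with H3.3WT and 1.74 ± 0.143% with H3.3Q5A.

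Larger fitted changes were more often upward when all 14 libraries were fitted, and often led by 1 library. A log2 fold change of 0.5 or more was fitted for 307 genes that were higher (1.98%) and 69 that were lower (0.446%) with H3.3Q5A. Of these, 241 and 66 had a mean under 10 CPM, and 121 and 36 had an unadjusted p under 0.05. In 196 of the 307 higher genes (63.8%) H3.3Q5A replicate 34 had the highest level of all 14 libraries, and replicate 37 followed with 36 genes. Over all genes tested, replicate 34 was highest in 2413 (15.6%) and replicate 37 in 2094 (13.5%). Genes picked as higher with H3.3Q5A tend to peak in one of its libraries, so these shares are described and not tested. Without replicate 34, 139 of the 307 were still at 0.5 or more, 297 were still above 0, and their median was 0.48 in place of 0.61. Fitted over all genes without replicate 34, 173 genes were higher by 0.5 or more, and without H3.3WT replicate 13 there were 568. The balance between higher and lower genes changed with the fit: it was 222 higher and 268 lower within P1, 1012 and 285 within P2, and 257 and 260 with the log2 total count as a term. With the first 3 principal components as terms it was 129 and 125. Without H3.3Q5A replicate 2 the lower genes numbered 160. Of the 69 lower genes, 53 were still at −0.5 or below without replicate 34. A log2 fold change of 1 or more was fitted for 28 higher genes (0.181%), 18 of them highest in replicate 34, and for 7 lower genes (0.0452%). Of the higher ones, 13 were still at 1 or more without that library.

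Gene groups taken from the principal components showed which libraries varied together. Each group holds the 200 genes with the highest or the lowest loadings on a component. The components were computed without the virus labels but from these same libraries, so the groups are described and not tested. The genes high on the first component averaged 3.80 log2 CPM in H3.3WT replicate 13, 3.08 in H3.3Q5A replicate 2 and 2.24 in H3.3Q5A replicate 14, and 0.50 to 1.66 in the other 11. This was the widest range over libraries among the 6 groups, and the highest libraries came from both viruses: the median log2 fold change was 0.028, with 110 of 200 genes higher and 1 of 200 (0.5%) at an unadjusted p under 0.05, against 7.89% of all genes tested. Its value turned on single libraries, at 0.67 without H3.3WT replicate 13 and −0.38 without H3.3Q5A replicate 2, and it was −0.43 among P1 and 0.49 among P2 libraries and −0.54 with the log2 total count as a term.

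The genes high on the third component were highest in H3.3Q5A replicate 34. They averaged 3.60 log2 CPM there, 2.48 in H3.3WT replicate 11, 2.41 in H3.3Q5A replicate 2 and 1.13 to 2.103 in the other 11. Their median log2 fold change was 0.54, with 197 of 200 higher, but 13 of 200 (6.5%) had an unadjusted p under 0.05, against 7.89% of all genes tested. It was 0.19 without replicate 34, 0.026 among P1 libraries and 1.06 among P2 libraries. The genes low on the third component averaged 0.91 in replicate 34 and 1.52 to 2.21 in the other libraries. Their median was −0.13, and −0.022 without replicate 34, 0.0089 within P1 and −0.30 within P2.

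The genes high on the second component were mostly higher with H3.3Q5A. They averaged 0.83 to 1.92 log2 CPM with H3.3WT (median 1.25) and 1.33 to 2.31 with H3.3Q5A (median 1.72). The highest were H3.3Q5A replicates 37, 15 and 34, and the lowest were H3.3WT replicates 36 and 3. The groups overlapped, since H3.3WT replicate 21 was at 1.92 and H3.3Q5A replicate 5 at 1.33. Of the 200 genes 194 were higher with H3.3Q5A, the median log2 fold change was 0.36, and 36 (18%) had an unadjusted p under 0.05 and were higher, against 4.27% of all genes tested. Genes of one component vary together, and the viruses differed by 14.9 on this one, so the 18% adds no support. Of these 200 genes 157 had a mean under 10 CPM. The median was 0.16 among P1 and 0.54 among P2 libraries and 0.25 to 0.49 on leaving out each library. It was 0.23 with the log2 total count as a term, and 0.040 with the first 3 principal components, this one among them, as terms. The same genes were higher in P2 than in P1 by a median of 0.30. The genes low on this component had a median of −0.21, with 42 of 200 higher. It was −0.026 within P1, −0.38 within P2, −0.099 without H3.3WT replicate 36 and −0.33 without H3.3Q5A replicate 2.

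The virus effect was then set side by side in P1 and P2, whose libraries are separate and whose meaning the labels do not give. Among the 7 P1 libraries 398 of 15545 genes (2.56%) had an unadjusted edgeR p under 0.05, and among the 7 P2 libraries 1187 of 15524 (7.65%). edgeR called 0 genes at an adjusted p under 0.05 in either. Over the 15500 genes tested in both, the Spearman correlation of the log2 fold changes was 0.105 and Pearson's r was 0.037. The sign was the same in 55.0%. Genes of a library share its depth and are not independent. The Spearman correlation was 0.062 for genes under 1 CPM and 0.109 for those at 100 CPM or more. It was −0.018 without H3.3WT replicate 6 and 0.30 without H3.3WT replicate 13. Of the 396 P1 genes at an unadjusted p under 0.05 that were tested in both, 222 (56.1%) had the same sign in P2. Of the 1185 P2 genes, 755 (63.7%) had the same sign in P1. The 2 lists shared 34 genes, 8.59% of the P1 list and 2.87% of the P2 list: 14 were higher in both, 8 lower in both and 12 opposite.

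**Figure D5:**
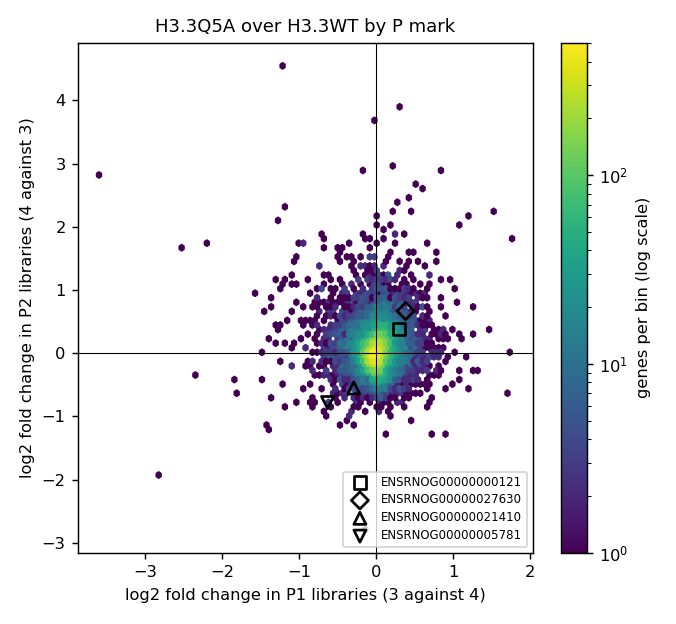
Log2 fold change of H3.3Q5A over H3.3WT fitted in P1 libraries (horizontal axis, 3 against 4) and in P2 libraries (vertical axis, 4 against 3). The 15500 genes are coloured by the number of genes per bin on a log scale. Outlined symbols mark 4 genes, the 2 of smallest p each way at a mean of 1 CPM or more. The cloud is centred near 0 with a Spearman correlation of 0.105, and the 4 genes have the same sign on both axes.

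Whether the virus effect differed between P1 and P2 was tested directly. edgeR called 0 of 15485 genes (0%) for the interaction, with 631 (4.07%) at an unadjusted p under 0.05, and DESeq2 called 6 (0.0384%), all with a lower effect in P2. ENSRNOG00000004198 was at 42.4, 42.4, 42.6 and 41.0 CPM in the P1 libraries with H3.3WT and at 44.03, 40.5 and 44.9 CPM in those with H3.3Q5A. In P2 it was at 50.5, 53.1 and 61.1 CPM with H3.3WT and at 41.3, 32.3, 33.3 and 36.03 CPM with H3.3Q5A. The viruses overlapped in P1 and were apart in P2, where H3.3Q5A was lower. The interaction, P2 effect minus P1 effect, was −0.66 on the log2 scale (SE 0.13; edgeR adjusted p = 0.870, DESeq2 adjusted p = 0.0171).

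ENSRNOG00000005180 averaged 63.4 and 69.7 CPM with H3.3WT and H3.3Q5A in P1, and 84.4 and 60.1 CPM in P2, an interaction of −0.63 (SE 0.12, edgeR adjusted p = 0.870). Without H3.3Q5A replicate 14 the edgeR adjusted p of this gene was 0.0416, the single call in that fit, and 1618 genes had an unadjusted p under 0.05. In the opposite direction ENSRNOG00000019812 averaged 55.5 and 51.9 CPM in P1 and 49.5 and 59.1 CPM in P2 (interaction 0.35, SE 0.089, edgeR adjusted p = 0.870). ENSRNOG00000000531 averaged 6.64 and 5.95 CPM in P1 and 5.21 and 7.41 CPM in P2 (interaction 0.66, SE 0.17, edgeR adjusted p = 0.870).

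The P mark was compared in the same way. In the same fit edgeR called 0 of 15485 genes (0%) between P2 and P1, with 953 (6.15%) at an unadjusted p under 0.05, and DESeq2 called 37 (0.237%). The lists of virus and mark at an unadjusted p under 0.05 shared 93 genes, 7.62% of the virus list and 9.76% of the mark list. On the fourth principal component the marks differed by 14.9 (exact permutation p = 0.00408, adjusted p = 0.0326 over 8 measures), while the viruses differed by 1.75 (exact permutation p = 0.775, adjusted p = 0.863).

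The 2 genes of smallest p each way for the mark, at a mean of 1 CPM or more, were called by DESeq2 and not by edgeR. ENSRNOG00000007830 ran from 12.1 to 48.4 CPM in P1 (median 19.4) and from 5.76 to 10.2 CPM in P2 (median 7.11), with every P1 library above every P2 library. Its log2 fold change of P2 over P1 was −1.51 (SE 0.25, edgeR adjusted p = 0.173, DESeq2 adjusted p = 1.23e-05). Within P1 it was also higher with H3.3Q5A, at 48.4, 27.2 and 22.7 CPM, than with H3.3WT, at 12.1, 19.4, 15.6 and 12.4 CPM. In P2 the viruses overlapped, H3.3WT averaging 7.97 CPM and H3.3Q5A 7.58 CPM. This gene was picked for the mark, and edgeR called 0 genes for the virus within P1 and 0 for the interaction. ENSRNOG00000014350 ran from 3.87 to 50.1 CPM in P1 (median 20.4) and from 1.603 to 6.24 CPM in P2 (median 2.31). Its log2 fold change was −2.76 (SE 0.46, edgeR adjusted p = 0.173), although 1 P1 library, H3.3WT replicate 13 at 3.87 CPM, lay below the highest P2 library, H3.3Q5A replicate 15.

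The genes higher in P2 differed by less. ENSRNOG00000056753 ran from 47.1 to 55.2 CPM in P1 and from 57.2 to 67.3 CPM in P2 without overlap (log2 fold change 0.28, SE 0.045, edgeR adjusted p = 0.173). ENSRNOG00000013802 ran from 84.9 to 98.5 CPM in P1 and from 96.8 to 116 CPM in P2 (log2 fold change 0.23, SE 0.045, edgeR adjusted p = 0.303). Without H3.3WT replicate 21 edgeR called 3 genes for the mark, ENSRNOG00000007830 among them at an adjusted p of 0.0432.

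Most of the variation of a gene was left over after the virus and the mark were fitted as additive terms. The virus term took a median of 6.27% of a gene's variance in log2 CPM and the mark term 4.61%, with 83.7% left over. What was left over also holds any difference of the virus effect between the marks. With 14 libraries a term takes some share even without an effect, and these shares were not tested. The virus term took more than 50% of the variance in 95 of the 15485 genes tested and the mark term in 93. Some genes pass that limit without an effect, so these are not counts of genes set by the virus or the mark. The SD of log2 CPM between libraries had a median of 0.18 with H3.3WT and 0.19 with H3.3Q5A, and it was larger with H3.3Q5A for 55.4% of genes. Without H3.3Q5A replicate 34 that share was 49.7%, with H3.3WT replicate 13, which also stood apart, kept in. On leaving out each library of a group in turn, the median SD ran from 0.16 to 0.18 for H3.3WT and from 0.17 to 0.20 for H3.3Q5A. The SD was at least 2 times larger with H3.3Q5A in 1059 genes and at least 2 times larger with H3.3WT in 621, and without replicate 34 these counts were 884 and 971.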

How the data were processed

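RNA was extracted with Trizol and RNeasy Micro columns and made into TruSeq RNA V2 libraries, per the labels' protocols. That kit does not mark strand, so reads of overlapping and antisense genes cannot be told apart. The submitters' processing notes name HISAT2 2.1.0, featureCounts 2.0.1, DESeq2 1.6.3 and build rn6, with no role or order. Which annotation release was used is not given. The deposited values are raw read counts per Ensembl gene. Each of the 15635 genes reaches 10 counts in at least 14 of the 28 libraries.

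Groups came from the sample titles. The 14 mPFC libraries were fitted with edgeR 4.0.16 in R 4.3.3 (TMM factors, quasi-likelihood test, virus and P mark as additive terms), after filterByExpr left out 150 genes. Adjustment was by Benjamini and Hochberg over all genes tested. Intervals were derived from the F statistic. Log2 CPM used a prior count of 2. DESeq2 1.42.0 and limma 3.58.1 served as alternatives. Libraries of 1 group always differed by more than sampling noise (smallest chi-square per degree of freedom 9.02). No label ties a library to an animal, so the spread behind each p-value may be technical.

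The comparison, groups of genes and lists were chosen with earlier results of these data known. The naming rule took the 2 smallest p-values each way at a mean of 1 CPM or more, because IDs could not be paired with names. For that reason the lists written as symbols were not analysed here. Groups by level and by principal component were added after the data were examined.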

Additional observations from a re-analysis of the deposited data

Results flagged for a closer look

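Among 52 sets of 7 values tested for a value far from the rest (a gap to the nearest value too wide for the range, by Dixon's test), 7 held one. For a single set chance gives about 1 in 20. The sets share libraries, and many hold genes picked by p-value or component groups, so that rate is no measure for the 7 together. In H3.3WT, replicate 13 held 3 of the 7. Its median correlation with the other libraries was 0.974 where the next lowest was 0.985. Its score on the first principal component was 51.02 where the next highest was 2.41, and the genes high on that component averaged 3.80 log2 CPM where the next highest was 1.35. In H3.3WT replicate 21 the genes low on the second component averaged 1.96 log2 CPM where the next lowest was 2.73.

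In H3.3Q5A replicate 34 the 10 highest genes took 3.08% of the counts where the next highest library had 2.66%, and the genes high on the third component averaged 3.60 log2 CPM where the next highest was 2.41. In H3.3Q5A replicate 4, ENSRNOG00000014350 was at 50.1 CPM where the next highest was 21.7 CPM. The component groups were formed from these libraries, so a library that defines a component is also far out in its genes.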

How the results depend on the processing

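For the virus, edgeR called 0 genes under every alternative fitted with it, including each library left out, and DESeq2 called 8. Genes at an unadjusted p under 0.05 numbered 1221 and ran from 705 to 2020 on leaving out each library. It was 398 among P1 libraries alone and 501 with the log2 total count as a term, and within 1.5 times of 1221 otherwise (919 without H3.3Q5A replicate 34 and H3.3WT replicate 11, 1360 and 1108 with 1 and 3 principal components as terms). For the mark, DESeq2 called 37 genes where edgeR called 0, and edgeR called 0 to 3 on leaving out each library, with 656 to 1422 at an unadjusted p under 0.05. For the interaction, DESeq2 called 6, and edgeR called 0 to 1 on leaving out each library, with 370 to 1618 at an unadjusted p under 0.05. The cause was not tested.

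With the first 3 principal components as terms, a choice made after seeing the data, the median at 100 CPM or more was 0.0096 in place of −0.055, with 55.7% of genes higher, and at 1000 CPM or more 43 of 84 genes were higher. Under 1 CPM the median was −0.012 (48.0% higher) in that fit, and the genes low on the second and the third component had medians of 0.058 and 0.041. Of 252 values of named genes under alternatives, 240 stayed at an adjusted p of 0.05 or more, as in the main fit, and 12 fell below it. The 12 came from DESeq2, except ENSRNOG00000007830 without H3.3WT replicate 21 and ENSRNOG00000005180 without H3.3Q5A replicate 14. No value turned direction, but these genes were picked by p-value in the same libraries, so a kept direction adds no support. Among the library measures, H3.3Q5A minus H3.3WT differences that turned direction were those of the share of the 10 highest genes (0.038 percentage points in P2), of the median correlation (0.0030 in P1 and 0.00034 without H3.3Q5A replicate 34), of the first component (−3.57 in P1) and of the fourth (−10.5 in P2). No paired analysis was possible because the 2 mPFC groups share no replicate number. Intervals were widest for genes under 1 CPM. The medians of the symbol lists were not run, because no ID could be paired with a symbol.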
